A study of Mus musculus with 4 samples.

Results

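The interaction of indole-3-carbinol (I3C) with TNBS colitis was computed for each gene from 4 arrays of enriched colonic epithelial cells (CECs). It is the I3C difference in colitis (TNBS + I3C minus TNBS + Veh) minus the I3C difference without colitis (I3C minus Vehicle), on the log2 scale of the deposited values, where 1 stands for a 2-fold difference. For each gene with 1 symbol the probe set of highest mean was taken, and values at or below a background level of 5.43 were raised to that level. Of 30176 genes, 19050 were protein-coding and 10368 of these lay above background in at least 1 array. A total of 275 genes differed at least 2-fold with I3C in colitis, without colitis or in both settings, and these were sorted into classes by how the differences related.

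Female BALB/cJ mice aged 8 to 10 weeks made up all groups, and the labels name no engineered allele. The Vehicle group received the ethanol vehicle (60%, 50 µl, intrarectal) and the DMSO and corn oil vehicle (intraperitoneal), I3C mice received the ethanol vehicle and 40 mg/kg of I3C daily, TNBS + Veh mice received 1 mg of TNBS in ethanol and the oil vehicle, and TNBS + I3C mice received both agents, up to day 5. The study's methods give another volume and ethanol share for the TNBS vehicle, and the values here are those of the labels. Cells of each group were enriched for EPCAM, pooled and hybridized to a single Clariom D array, so every value stands for 1 pool and no difference could be set against a replicate spread or tested. The labels name enriched epithelial cells as the source but whole colon in their note on RNA extraction, and the study's methods describe RNA from EPCAM-enriched cells. Wherever 4 values of a gene follow each other below, they stand in the order Vehicle, I3C, TNBS + Veh, TNBS + I3C. Epcam, on which the cells were selected, read 17.06, 16.91, 17.06 and 17.13. By the study's flow cytometry not all of the enriched cells were EPCAM-positive, and markers of leukocytes were also present, as given beside the results.

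I3C is formed from a glucosinolate of cruciferous vegetables, and its acid condensation products are ligands of the aryl hydrocarbon receptor (AhR), a transcription factor that pairs with ARNT and binds DNA at a short core sequence. TNBS is a hapten that, given with ethanol into the colon, modifies proteins and elicits an acute inflammation with neutrophils and macrophages. The colonic epithelium holds absorptive colonocytes, mucus-secreting goblet cells and a few other types, and it renews itself from crypt stem cells.

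Few genes differed 2-fold with I3C in both settings. In colitis, 95 genes were higher with I3C by 2-fold or more (0.916% of the 10368 genes) and 161 were lower (1.55%). Without colitis, 22 were higher (0.212%) and 9 were lower (0.0868%). The interaction itself was 2-fold or more above 0 for 168 genes (1.62%) and below 0 for 203 (1.96%). Of the 256 genes 2-fold apart in colitis, 49 (19.1%) differed by 0.5 or more without colitis as well, as did 3.24% of all genes. Of the 31 genes that differed 2-fold without colitis, 12 also differed 2-fold in colitis, 10 in the same direction and 2 in the opposite one. Over all 10368 genes, the SD of the difference was 0.212 without colitis and 0.440 in colitis. Their correlation across genes was near 0 (Pearson r = -0.013, Spearman rank correlation -0.065), and genes are not independent replicates.

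**Figure D1:**
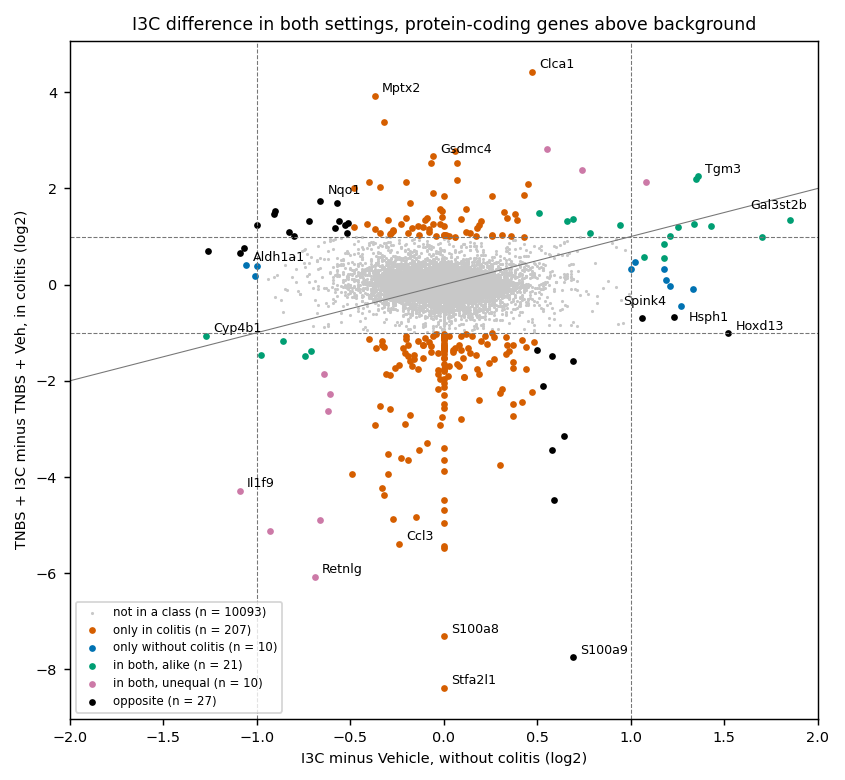
I3C difference without colitis (x axis, log2) against the I3C difference in colitis (y axis, log2) for 10368 protein-coding genes above background, with 1 point a gene and colours for the classes. Dashed lines mark 2-fold and the solid line equal differences. The 207 genes that differed only in colitis spread along the y axis from -8.38 (Stfa2l1) to 4.43 (Clca1), while the widest difference without colitis was 1.85 (Gal3st2b).

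A gene was placed in the class "only in colitis" where the difference there was at least 2-fold and the other under 0.5, and in "only without colitis" by the reverse. Where the other difference reached 0.5, genes with the same sign were called alike if the interaction was under 1 and unequal otherwise, and genes with unlike signs were called opposite. The class only in colitis held 207 genes (2.00% of the genes above background), 67 higher and 140 lower. The class only without colitis held 10 (0.0965%), 7 higher and 3 lower. In both settings alike were 21 (0.203%), in both but unequal 10 (0.0965%), and opposite 27 (0.260%). These counts follow from the thresholds: just inside 2-fold in colitis stood Aldh6a1 and Elapor1 at 1.00, and just outside it Agpat4 and Atp2b1 at 0.99. Just inside the limit on the smaller difference stood Rsad2 at -0.48 and Nlrp3 at -0.49, and just outside it Map3k8 at 0.50 and Rtp4 at -0.51.

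TNBS + Veh was the array that stood apart for most of these genes. For 248 of the 371 genes with an interaction of at least 2-fold (66.8%), TNBS + Veh lay farthest from the median of the other 3 arrays, against 36.1% of all genes. All 140 genes lower with I3C only in colitis had TNBS + Veh as the array that stood apart, as did 44 of the 67 higher ones, the other 23 being apart in TNBS + I3C. The 10 genes that differed only without colitis stood apart in I3C (7) or Vehicle (3). These counts are bound in part by the sorting, which uses the same values. A gene that differed only in colitis could stand apart only in a TNBS array. One that differed only without colitis could stand apart only in Vehicle or I3C. Which array of each pair stood apart was not fixed in this way. Opposite genes divided into 12 with TNBS + Veh apart, 9 with TNBS + I3C, 3 with Vehicle and 3 with I3C. Because TNBS + Veh enters both the TNBS difference and the I3C difference in colitis, the pair share that array and a high or low reading there moves them in opposite directions. Of 647 small nucleolar RNAs above background, 22 (3.40%) differed only in colitis, against 1.14% of all noncoding genes. Of the 22, 21 were higher with I3C, among them Snord123, of the C/D box kind, which read 16.54, 16.79, 14.89 and 16.54. Other RNA types shared this class, with 3 of 62 ribosomal RNA genes and 1 of 27 guide RNAs, but 6 of 715 small nuclear RNAs. The part of all these RNAs in the differences of protein-coding genes was not tested.

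**Figure D2:**
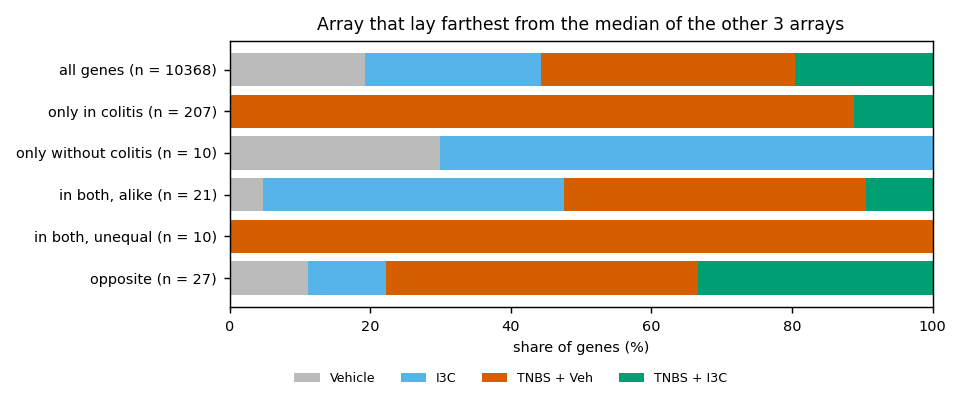
Share of genes (x axis, percent) by the array that lay farthest from the median of the other 3, for all genes and for each class. TNBS + Veh stood apart for 36.1% of all genes, for 184 of 207 genes of the class only in colitis and for all 10 of the class in both, unequal. The shares come from the same values as the classes and are not independent of them.

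Epithelial genes led the 67 that were higher with I3C only in colitis. Clca1, a metalloprotease that goblet cells secrete with mucus, read 16.20, 16.67, 13.15 and 17.58. Its I3C difference was 0.47 without colitis and 4.43 in colitis, which is 21.6-fold. Only TNBS + Veh was low. Mptx2, a mucosal pentraxin, a family of secreted proteins related to serum amyloid P, read 12.34, 11.97, 7.42 and 11.34, a difference of -0.37 without and 3.92 with colitis. Mptx1 followed with 11.49, 11.17, 6.73 and 10.11. In both pentraxins TNBS + I3C lay below the arrays without colitis, whereas Clca1 lay above them.

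The gasdermin C genes, members of a family of pore-forming proteins, stood higher in TNBS + I3C than in any other array. Gsdmc4 read 11.42, 11.36, 10.55 and 13.22, so that I3C made a difference of -0.06 without colitis and 2.67 in colitis. Gsdmc2 and Gsdmc3, its neighbours on chromosome 15, both differed by 2.53 in colitis, and by -0.07 and 0.07 without. Gsdmd, the family member cleaved by inflammatory caspases, differed by -0.15 in colitis. Gsdmc2, Gsdmc3 and Gsdmc4 are similar in sequence, and cross-hybridization between them was not tested. Mcpt1 and Mcpt2, mucosal mast cell proteases, were also highest in TNBS + I3C: Mcpt1 read 5.36, 5.49, 5.46 and 8.23, and Mcpt2 lay at or below background in the other 3 arrays and read 7.28 there. Of the mast cell list, 4 of 9 measured members passed background and all 4 differed upward in colitis, against 44.3% of all genes. But Mcpt2 passed only through TNBS + I3C and so had to, and Mcpt1 and Mcpt4 lay near background elsewhere. Kit, the stem cell factor receptor and the only one well above background in all arrays, differed by 0.84.

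Repair and antimicrobial genes split within this class. Reg3b, an antibacterial lectin, read 9.29, 9.25, 13.50 and 14.52, and Reg3g read 6.63, 6.75, 7.38 and 8.95. Sprr1a, a cornified envelope protein that rises in injured epithelium, read 6.92, 6.86, 7.80 and 9.71. For these 3 genes TNBS + Veh exceeded Vehicle, and TNBS + I3C exceeded both. By contrast Duox2, which makes hydrogen peroxide at the epithelial surface, read 7.35, 7.61, 8.47 and 7.46, and its I3C difference in colitis was -1.01. The water channel Aqp8 of surface colonocytes read 12.30, 12.56, 11.28 and 13.13. Carboxylesterases were among the larger differences, with Ces2a at 2.14, Ces1f at 2.01 and Ces1g at 1.69 in colitis, against -0.40, -0.48 and -0.18 without. Adm, the vasoactive peptide adrenomedullin, read 10.19, 9.99, 8.72 and 10.85, a difference of 2.13 in colitis.

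**Figure D3:**
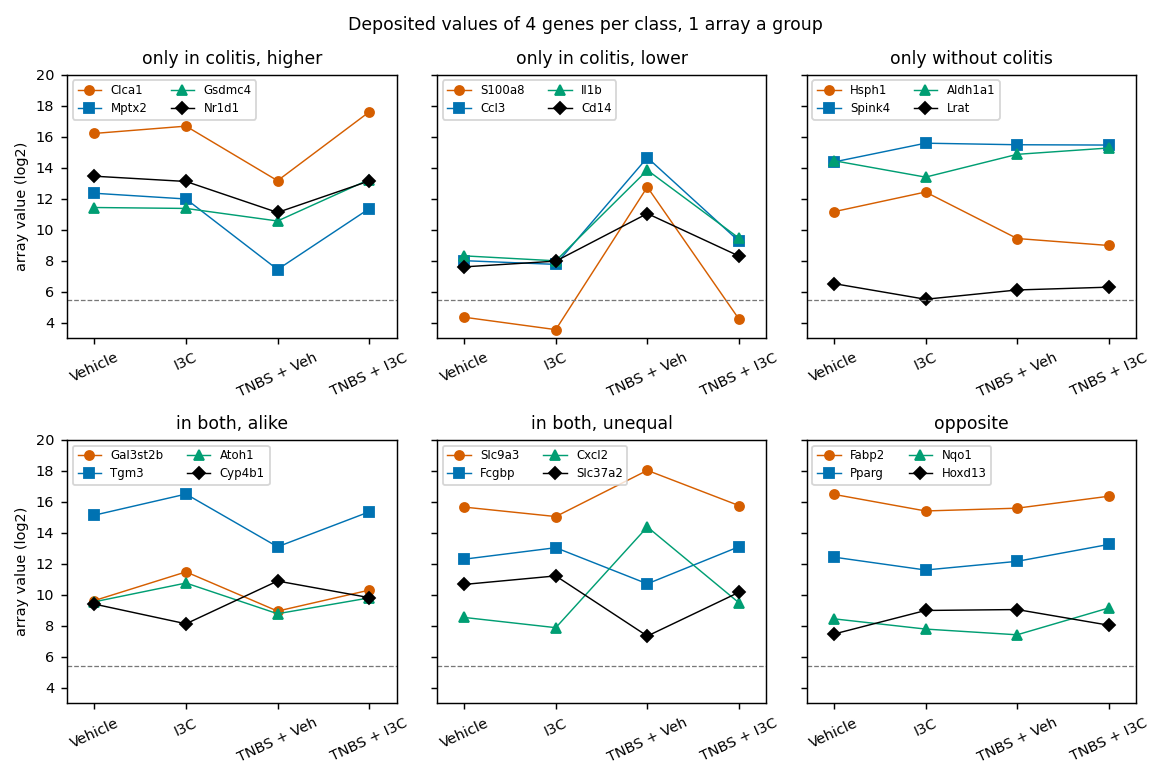
Deposited log2 value (y axis) of 4 genes per class in each of the 4 arrays (x axis), with lines joining values of 1 gene and the dashed line at the background level of 5.43. Genes higher only in colitis dip in TNBS + Veh (Clca1 13.15), genes lower only in colitis peak there (Ccl3 14.64), and the opposite genes cross, as Nqo1 does with 8.45, 7.79, 7.42 and 9.15 from left to right.

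Most genes of the interferon response list were higher with I3C in colitis. Of 17 listed members above background, 16 differed upward with I3C in colitis and 1 downward, with a median of 0.75, while without colitis the median was -0.02 with 5 upward and 11 downward. Over all genes above background, 44.3% differed upward in colitis and the median was 0. Gbp7, a guanylate-binding protein of cell-autonomous defence, read 7.60, 7.59, 6.57 and 7.97. Its relative Gbp2 read 6.45, 6.45, 5.92 and 7.14. Rsad2 (viperin), an antiviral enzyme, read 8.03, 7.55, 7.13 and 8.33, and Irf7, the regulator of type I interferon genes, read 9.40, 9.27, 8.57 and 9.60. In all 4 genes TNBS + Veh was lowest and TNBS + I3C highest, and the arrays without colitis lay between them. Bst2 was the list's exception, at -0.25 in colitis. Outside the list, Ddx60, an antiviral helicase, read 7.64, 7.34, 6.27 and 7.62, but other interferon-induced genes went the other way: in colitis Ifitm1, Ifitm2, Ifitm3 and Ifitm6 differed by -1.68, -1.24, -1.15 and -1.26, and Slfn2 and Slfn4 by -1.88 and -1.55.

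The starts of these interferon genes are shown for a sequence that most promoters of the list hold. Because the list was chosen for interferon response, the share of this sequence in it is a description only. The letters GAAA, then 2 bases of any kind, then GAAA, the interferon-stimulated response element bound by STAT and IRF factors, were searched on both strands of RefSeq promoters (GRCm38.p6, 250 bases before to 50 after a start). They occurred in 12 of 18 promoters of the list (66.7%), in 3.08% of those of coding genes above background and in 3.44% of all 32851 promoters. In the class only in colitis they occurred in 8.94%, with 10.7% for the higher and 8.13% for the lower genes. The class alike in both settings held them in 4 of 18 promoters (22.2%). Capitals mark the match, on either strand, in a stretch of 100 bases upstream of the start, written 5′ to 3′ on the strand of the gene, for Gbp2 (chr3:142620559-142620658, plus strand), Gbp7 (chr3:142530236-142530335, plus strand), Rsad2 (chr12:26456518-26456617, minus strand) and Ddx60 (chr8:61927987-61928086, plus strand).
Gbp2: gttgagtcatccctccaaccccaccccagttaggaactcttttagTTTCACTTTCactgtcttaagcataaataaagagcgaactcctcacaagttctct
Gbp7: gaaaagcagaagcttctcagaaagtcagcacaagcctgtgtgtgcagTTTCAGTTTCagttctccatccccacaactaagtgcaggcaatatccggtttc
Rsad2: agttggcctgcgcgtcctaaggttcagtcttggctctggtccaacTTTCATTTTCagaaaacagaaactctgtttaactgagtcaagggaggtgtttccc
Ddx60: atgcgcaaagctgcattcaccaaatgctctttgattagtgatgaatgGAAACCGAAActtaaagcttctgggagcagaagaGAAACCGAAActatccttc
The match of Gbp2 began 59 bases before the start, that of Gbp7 53 and that of Rsad2 120, and Ddx60 held 2, at 53 and 19 bases. A match describes the letters only and does not show binding.

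Of the clock list, 3 of 14 genes were higher with I3C only in colitis. Nr1d1 (REV-ERB alpha), a nuclear receptor that represses Arntl, read 13.44, 13.10, 11.10 and 13.13, and Nr1d2 read 12.04, 11.63, 11.21 and 12.47. Dbp, a transcription factor of the clock's output, read 8.90, 9.35, 7.51 and 9.61. The I3C difference in colitis was 2.03, 1.26 and 2.10 for these genes, against -0.34, -0.41 and 0.45 without. Arntl and Clock, the activators of the loop, stood at -0.59 and -0.57 in colitis and the repressor Cry1 at -0.81, none of them 2-fold. Of the 14 listed clock genes above background, 8 differed upward (44.3% of all genes did) and 6 downward in colitis. Near their starts these 3 genes held GCGTG, the core that AhR and ARNT bind, which lay in 11 of 17 promoters of the clock list (64.7%), 48.6% of those of coding genes above background and 32.4% of all. The E-box CACGTG, which CLOCK and ARNTL bind and which ends in the same letters CGTG, was counted separately and lay in 23.5% of the list's promoters, 9.78% of those of coding genes above background and 7.15% of all. The stretches around the matches are Nr1d1 (chr11:98775521-98775620, minus strand), Nr1d2 (chr14:18239175-18239274, minus strand) and Dbp (chr7:45705036-45705195, plus strand), with the core in capitals.
Nr1d1: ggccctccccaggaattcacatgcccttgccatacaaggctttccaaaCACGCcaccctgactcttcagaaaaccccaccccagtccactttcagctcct
Nr1d2: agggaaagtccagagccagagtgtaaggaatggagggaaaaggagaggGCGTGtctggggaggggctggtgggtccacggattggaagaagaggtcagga
Dbp: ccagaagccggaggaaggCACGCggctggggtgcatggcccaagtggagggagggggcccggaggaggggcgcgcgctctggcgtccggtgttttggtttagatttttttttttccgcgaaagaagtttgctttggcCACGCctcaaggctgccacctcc

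Leukocyte genes led the 140 that were lower with I3C only in colitis. Stfa2l1, a stefin of neutrophils, read 4.98, 5.43, 14.01 and 5.63, a difference of -8.38 in colitis. S100a8, a subunit of calprotectin, was above background only in TNBS + Veh, at 12.74, so that it was at least 7.31 lower with I3C. Mmp8, the collagenase of neutrophils, was likewise seen only there, at 10.87. Ccl3, a chemokine of activated phagocytes, read 7.99, 7.75, 14.64 and 9.25, and Il1b, the inflammatory cytokine, read 8.30, 7.98, 13.83 and 9.45. Cd14, the lipopolysaccharide co-receptor of macrophages, read 7.59, 7.96, 11.03 and 8.29. In each of these genes TNBS + Veh alone was high, and TNBS + I3C lay nearer to Vehicle than to TNBS + Veh.

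Most members above background of the neutrophil list and of the macrophage and monocyte list were lower in colitis too. All 23 neutrophil markers above background, of 24 measured, were lower with I3C in colitis (median -3.64), 19 of them at least 2-fold. Over all genes above background, 49.7% were lower in colitis and 1.55% at least 2-fold lower. The median of the neutrophil markers without colitis was 0. Their summed unlogged levels were, in the same order of arrays, 3999, 5656, 76864 and 7610, with 12, 15, 1 and 11 members at background. Among macrophage and monocyte markers, 9 of 17 passed and the other 8 were above background in no array. Of the 9, 8 were lower in colitis and the median was -1.69. Ccr2, a monocyte chemokine receptor, read 5.46, 5.03, 4.98 and 5.13, with no difference in colitis. Csf1r, which defines macrophages, read 5.72 in TNBS + Veh and lay at or below background in the other arrays. All 8 pan-leukocyte markers were lower in colitis (median -0.49), among them Ptprc (CD45) at -0.57. Many of these genes passed the background filter only through TNBS + Veh and so had to differ. In pooled cells, fewer cells of a type and less RNA per cell cannot be told apart.

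The absence of a difference without colitis was limited by background for these genes. Of the 140 genes lower only in colitis, 35 lay at or below background in both Vehicle and I3C, where no difference could be measured, and 33 lay there in TNBS + I3C, which makes their difference in colitis a lower bound. A total of 90 were above background in all arrays. Of the 67 higher genes, 64 were. The median level in Vehicle was 6.09 for the lower genes and 9.29 for the higher ones. The median TNBS difference without I3C was 1.80 for the lower and -0.86 for the higher genes, and with I3C it was 0.11 and 0.47.

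Epithelial genes were found among the lower ones too. The sodium channel subunits Scnn1g and Scnn1b, neighbours on chromosome 7, read 7.55 and 6.55 in TNBS + Veh and at most 5.52 in the other arrays. Hsd11b2, which inactivates glucocorticoids in cells that respond to aldosterone, read 12.71, 13.18, 15.15 and 12.92. Guca2b, the peptide uroguanylin, read 10.85, 11.09, 13.38 and 11.75. Mt2, a metallothionein, read 12.13, 11.92, 16.58 and 13.68. The array that stood apart was again TNBS + Veh. Cell division genes shifted less. Of 23 listed members above background, 22 differed downward in colitis (median -0.61), against 49.7% of all genes, and 5 by 2-fold, against 1.55%. Their median without colitis was 0. Mki67, the proliferation marker, read 9.87, 9.66, 11.24 and 9.81.

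Some of the classed genes were neighbours on their chromosome. When the classed genes were placed in RefSeq gene order, 42 of 275 stood in 17 runs of adjacent genes of the same class and direction, and 5 runs held at least 3 genes. These were Gsdmc2 to Gsdmc4, Ifitm1, Ifitm2, Ifitm3 and Ifitm6, the Pilra and Pilrb genes, and 2 stretches of stefin genes on chromosome 16. Members of a run are often similar in sequence, so their values may not be independent. Other runs joined genes of unlike names, as Fbxl5 with Bst1 and Gm2511 with Cd33. How many runs the same number of genes placed at random would give was not computed, so these counts are a description only.

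The 10 genes that differed only without colitis were of several kinds. Hsph1, a co-chaperone of HSP70, read 11.15, 12.42, 9.42 and 8.97, a difference of 1.27 without and -0.45 in colitis. Spink4, a protease inhibitor of goblet cells, read 14.36, 15.57, 15.47 and 15.45, and only Vehicle was low. Best2, the bicarbonate channel of goblet cells, read 9.18, 10.37, 9.54 and 9.64. Amy2b, an amylase, read 5.62, 6.95, 6.44 and 6.34, close to background in Vehicle. Fn1, fibronectin, differed by 1.18 without and 0.33 in colitis, St6gal1, a sialyltransferase, by 1.02 and 0.48, and Lyz1, lysozyme of Paneth cells, by 1.00 and 0.32. In these last 3 genes the difference in colitis had the same sign as that without.

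The 3 lower genes of this class included a pair from retinoid metabolism. Aldh1a1, which makes retinoic acid from retinal, read 14.44, 13.38, 14.85 and 15.26. Lrat, which esterifies retinol, read 6.51, 5.50, 6.10 and 6.28, near background in I3C. Emp1, a membrane protein of surface epithelium, read 14.44, 13.44, 14.90 and 15.28. In all 3 the I3C array was lowest. Of 10 retinoid metabolism genes above background, 9 differed downward without colitis (median -0.11) and 6 upward in colitis (median 0.14). Over all genes, 51.4% differed downward without colitis and 44.3% upward in colitis. Of all genes with a mean of 11 to 15, the median without colitis was also -0.11.

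Heat shock genes went beyond Hsph1. Of 12 listed members above background, 10 differed upward with I3C without colitis (median 0.47) and 9 downward in colitis (median -0.15). Over all genes, 43.3% differed upward without colitis and 49.7% downward in colitis. The interaction was below 0 for 11 of the listed members, against 49.5% of all genes. Hspa1a, the inducible HSP70, read 12.25, 13.18, 10.68 and 9.86. Hsp90aa1 read 15.79, 16.32, 14.47 and 13.96. Bag3, a co-chaperone, read 7.70, 8.41, 7.82 and 7.70. In the first pair of genes I3C was highest and TNBS + I3C lowest. Hspa8, the constitutive HSP70, read 19.93 in all arrays, the highest value of the table, so that no difference could be seen. Because the list was chosen for heat shock genes, the share of the heat shock element in it is a description only. The element, GAANNTTC on both strands, lay in 8 of 13 promoters of the list (61.5%). It lay in 6.04% of those of coding genes above background and 7.86% of all. It is shown in capitals for Hspa1a (chr17:34972207-34972306, minus strand) and Hspb1 (chr5:135887766-135887865, plus strand), a small heat shock protein that read 5.82, 6.54, 5.42 and 5.72.
Hspa1a: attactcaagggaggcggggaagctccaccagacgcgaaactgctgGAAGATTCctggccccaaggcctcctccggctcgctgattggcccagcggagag
Hspb1: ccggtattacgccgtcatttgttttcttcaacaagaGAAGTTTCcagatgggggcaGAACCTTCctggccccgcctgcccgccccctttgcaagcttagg

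**Figure D4:**
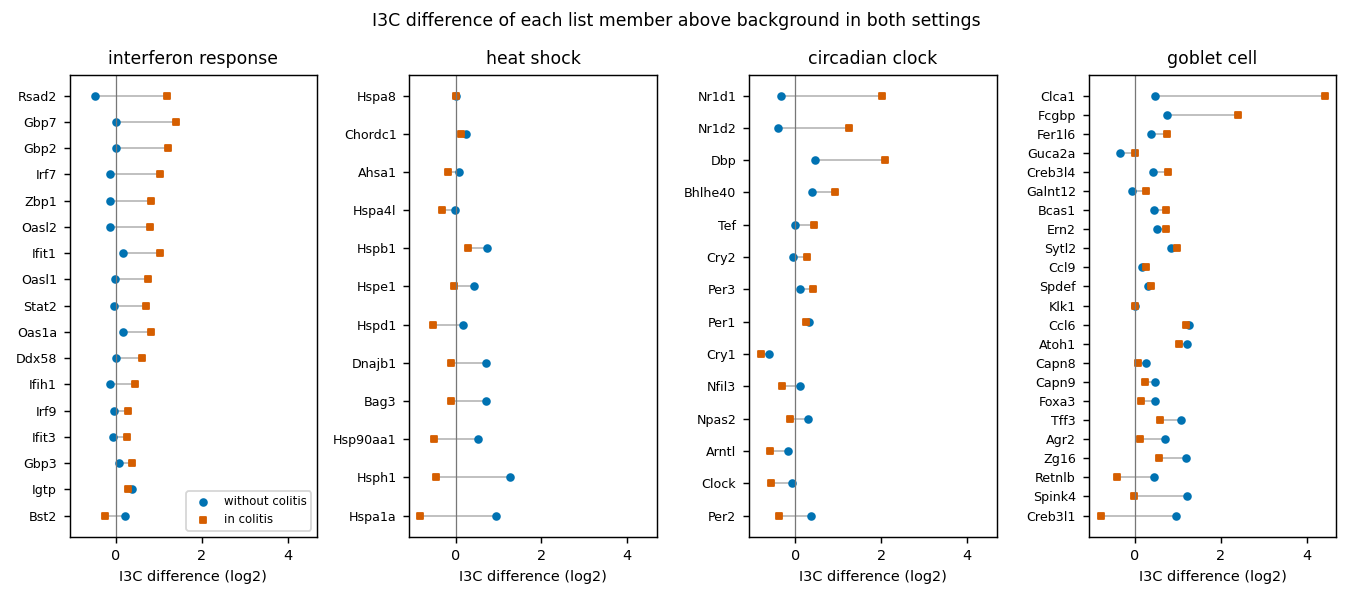
I3C difference (x axis, log2) of each listed gene above background without colitis (blue circles) and in colitis (orange squares) for 4 gene lists, ordered by the interaction. Interferon genes lie to the right in colitis (median 0.75), heat shock genes to the right without colitis (median 0.47), and goblet cell genes to the right in both (medians 0.46 and 0.37).

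Several of the 21 genes that differed alike in both settings are goblet cell genes. Gal3st2b, a sulfotransferase that acts on galactose, read 9.63, 11.48, 8.95 and 10.30. Its difference was 1.85 without and 1.35 in colitis, and its neighbour Gal3st2 differed by 1.43 and 1.22. Atoh1, the transcription factor that commits cells to the secretory lineage, read 9.55, 10.76, 8.78 and 9.80, with differences of 1.21 and 1.02. Zg16, a mucus lectin, differed by 1.18 and 0.56, and Tff3, the trefoil peptide of goblet cells, by 1.07 and 0.58. Reg4, a lectin of secretory cells, read 16.21, 17.39, 15.25 and 16.10. In Atoh1, Gal3st2b and Reg4 the level in TNBS + I3C lay closer to that in Vehicle than to that in I3C. Ccl6, a chemokine listed among goblet cell genes, differed by 1.25 and 1.19, and Hepacam2, an adhesion protein of secretory cells, by 0.69 and 1.36.

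The goblet cell list as a whole differed upward in both settings. Of 23 members above background, 20 were higher with I3C without colitis (median 0.46) and 18 in colitis (median 0.37), against 43.3% and 44.3% of all genes, and the median interaction was 0. Its members were nevertheless found in 4 groups: Clca1 only in colitis, Spink4 only without, Atoh1, Ccl6, Tff3 and Zg16 alike, and Fcgbp in both but unequal. Creb3l1, a transcription factor of secretory cells, differed by 0.96 without and -0.79 in colitis. Klk1 read 19.93 in all arrays. The promoter of Atoh1 is shown because it held 3 copies of the AhR core before its start, at 131, 95 and 40 bases. Yet the core lay in 16.7% of the 18 promoters of the class alike in both settings. It lay in 28.6% of those of the goblet cell list and 48.6% of those of coding genes above background. The 180 bases (chr6:64728945-64729124, plus strand) have the cores in capitals.
Atoh1: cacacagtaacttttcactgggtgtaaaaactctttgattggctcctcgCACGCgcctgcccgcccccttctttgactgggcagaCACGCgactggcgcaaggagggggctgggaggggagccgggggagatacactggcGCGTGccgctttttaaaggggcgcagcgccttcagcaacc

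Other genes of this class encode enzymes, pumps and junction proteins. Tgm3, a transglutaminase, read 15.14, 16.50, 13.10 and 15.35, and Sval1, a seminal vesicle antigen-like protein, read 12.77, 14.12, 10.97 and 13.16. Atp12a, the colonic proton and potassium pump, differed by 1.70 without and 0.99 in colitis, and Cldn4, a tight junction protein, by 0.94 and 1.24. Slc15a1, the peptide transporter PEPT1, differed by 0.66 and 1.32. The 5 genes lower in both settings were metabolic: Cyp4b1, a cytochrome P450, read 9.40, 8.13, 10.89 and 9.82, and Alpi, the intestinal alkaline phosphatase, read 10.43, 9.57, 12.39 and 11.21. Slc51b, a subunit of the bile acid exporter, differed by -0.98 and -1.47, Pdk4, which restrains pyruvate oxidation, by -0.74 and -1.49, and Dhrs9, a retinol dehydrogenase, by -0.71 and -1.39. For all 5, TNBS + Veh exceeded Vehicle.

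T cell and intraepithelial lymphocyte markers also differed alike, at a smaller size. Of 11 above background, of 15 measured, 10 were higher with I3C without colitis (median 0.19) and 10 in colitis (median 0.35). Over all genes, 43.3% and 44.3% were higher. None of the 11 was lower in either setting and none reached 2-fold. Nkg7 lay at or below background in 3 arrays, Xcl1 in 2, and Cd2 and Gzma in 1 each, which limits how low they could read. Cd3e, a subunit of the T cell receptor complex, read 5.63, 6.23, 5.66 and 6.45, and Cd3g read 6.85, 6.99, 6.40 and 7.28. The highest value of any member was 7.28, that of Cd3g in TNBS + I3C. Their part in the other differences was not tested.

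The 10 genes that differed the same way in both settings but unequally did so by more in colitis, and TNBS + Veh stood apart in each of them. Fcgbp, a large mucus protein that binds IgG Fc, read 12.30, 13.04, 10.71 and 13.10, with differences of 0.74 and 2.39. Slc37a2, a sugar phosphate antiporter, read 10.67, 11.22, 7.34 and 10.16, and the predicted gene Gm1123 differed by 1.08 and 2.13. Slc9a3 (NHE3), the sodium and proton exchanger of absorptive cells, read 15.66, 15.05, 18.03 and 15.76. Tmigd1, an adhesion protein of the epithelium, read 11.10, 10.46, 12.95 and 11.10. The 5 others that were lower are inflammatory genes. Cxcl2, a neutrophil attractant, read 8.54, 7.88, 14.38 and 9.49, Acod1, which makes itaconate in macrophages, read 7.28, 6.35, 13.21 and 8.08, and Il1f9, which encodes IL-36 gamma, read 7.16, 6.07, 12.06 and 7.78. Retnlg, of neutrophils, differed by -0.69 and -6.07 and Ptafr, the receptor of platelet-activating factor, by -0.62 and -2.63.

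Opposite differences were found for 27 genes, 16 of them lower with I3C without colitis and higher in colitis. Nqo1, a quinone reductase and a target of both AhR and NRF2, read 8.45, 7.79, 7.42 and 9.15, so its differences were -0.66 and 1.73. Phgr1, a small protein of the gut epithelium, read 10.10, 9.20, 8.90 and 10.43. Fabp2, the intestinal fatty acid binding protein, read 16.48, 15.41, 15.59 and 16.36. Pparg, the nuclear receptor of colonocyte differentiation, read 12.43, 11.60, 12.16 and 13.25. In all 4 genes both middle arrays, I3C and TNBS + Veh, lay below Vehicle. Ugt2b5, a glucuronosyltransferase, read 7.98, 6.98, 7.34 and 8.59, and its difference reached 2-fold in both settings. B4galnt2, which makes a glycan of the colonic surface, differed by -0.72 and 1.32, and Cldn23, a claudin of the surface epithelium, by -0.58 and 1.17. H1f2, a linker histone, differed by -0.57 and 1.69, Arhgap20 by -0.91 and 1.46, and Mier3, a transcriptional corepressor subunit, by -0.80 and 1.02.

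The other 11 opposite genes were higher with I3C without colitis and lower in colitis. Hoxd13, a homeobox factor of the hindgut, read 7.47, 8.99, 9.05 and 8.04, and it was the only one of these with 2-fold differences in both settings. Acot2, a mitochondrial thioesterase, read 10.05, 11.11, 11.60 and 10.91, and Krt36, a keratin, read 6.16, 7.39, 7.34 and 6.67. In these 3 genes Vehicle was lowest. The 8 others had TNBS + Veh as the highest array and were mainly inflammatory. S100a9, the partner of S100a8, read 5.64, 6.33, 13.88 and 6.13, Il1a read 6.62, 7.21, 11.46 and 6.99, Saa1, an acute phase protein, read 14.11, 14.69, 15.61 and 14.13, and Ly6c2, a monocyte antigen, read 6.08, 6.77, 8.40 and 6.82. Their difference without colitis was between 0.50 (Map3k8) and 0.69 (S100a9 and Ly6c2), near the limit of the class.

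Of the AhR list, Nqo1 alone was in a class. Ahr itself read 8.37, 8.22, 8.21 and 8.23 and Arnt read 8.35, 8.17, 8.33 and 8.29. Cyp1a1, Cyp1b1 and Ahrr, the usual induced targets of the receptor, lay below background in all arrays, with values between 3.89 and 4.76, so an I3C difference could not be seen for them. Tiparp, another target, read 9.02, 8.84, 9.06 and 8.87. Of 8 members of the AhR list above background, of 14 measured, the median difference was -0.16 without and -0.01 in colitis. Il22, the cytokine of innate lymphoid cells, was also below background, at 4.30 to 4.76. In the class only in colitis, the AhR core lay in 34.1% of promoters, below the 48.6% of coding genes above background.

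**Figure D5:**
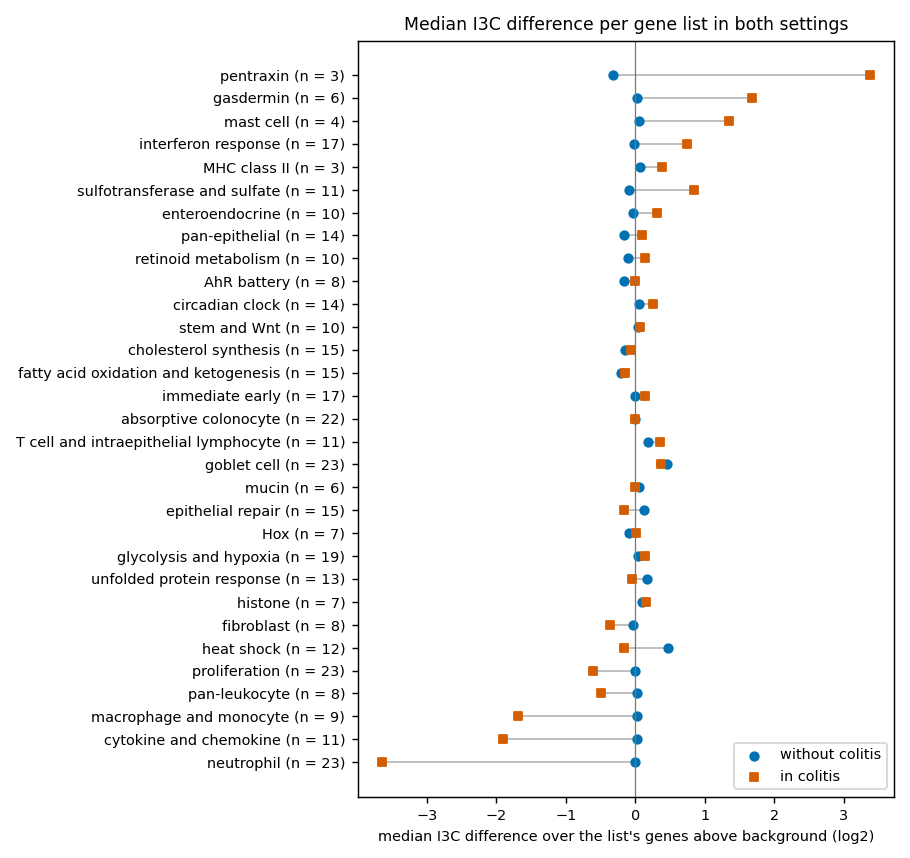
Median I3C difference (x axis, log2) over the members above background of each gene list with at least 3 such members, without colitis (blue circles) and in colitis (orange squares), ordered by the median interaction. Neutrophil genes lie at 0 and -3.64, pentraxins at -0.32 and 3.38 (the values of Mptx1, the middle of 3 members), and the absorptive colonocyte list at 0 in both.

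Among epithelial lists other than that of goblet cells, those of absorptive colonocyte and pan-epithelial genes showed medians near 0 that covered unlike members. Over 22 absorptive colonocyte genes above background, the medians were 0 in both settings. Yet 10 of them were in a class, beside 275 of all 10368 genes. These were Aqp8, Guca2b, Scnn1b and Scnn1g only in colitis, Emp1 only without, Alpi alike, Slc9a3 and Slc37a2 unequal, and Fabp2 and Saa1 opposite. Scnn1b and Scnn1g lay below background in both Vehicle and I3C. Pan-epithelial genes had medians of -0.16 without and 0.10 in colitis. Of 14, 12 were lower without colitis (51.4% of all genes were) and 10 higher in colitis (44.3% of all genes). Of 10 enteroendocrine genes above background, 9 were higher in colitis (44.3% of all genes) with a median of 0.31, and none reached 2-fold. Tac1 and Scg5 lay below background in TNBS + Veh, so they could not read lower in colitis. Without colitis 4 of these 10 were higher (43.3% of all genes) and the median was -0.035. Of 15 genes for ketone bodies and fatty acid breakdown, 14 were lower without colitis (median -0.20) and 9 in colitis (median -0.14). Over all genes, 51.4% and 49.7% were lower. Genes with a mean of 11 to 15 had a median of -0.11 without colitis. Some of the highest values could not move: Car1, Krt8 and Lypd8 read 19.93 in all arrays and Slc26a3 read 18.59 in 3 of them.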

How the data were processed

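The authors hybridized RNA of EPCAM-enriched cells, pooled per group, to 4 Clariom D mouse arrays and deposited 1 table of log2 values for 65956 probe sets. Transcriptome Analysis Console is listed in the submitters' processing notes, and the methods name it with Partek and Genesis for downstream analysis. How background was corrected, how the arrays were normalized and which build served were not given in the sources used here. Medians over all probe sets were 4.87 to 5.00. Precision is limited by the number of arrays, and no p-value or standard error was computed from 1 array a group.

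Of the probe sets, 30638 had 1 symbol (22596 matched to the RefSeq table of GRCm38.p6 by gene number, 7710 by symbol, 332 kept as listed), 2176 had several and 33142 were unlisted. Genes whose probe sets carry several symbols, Muc2 and Gapdh among them, were not named. Background was the highest 95th percentile over the arrays of 1720 probe sets for olfactory and vomeronasal receptors. The 34 lists, the members and the rules were chosen with earlier results of these data known. Named genes are, outside receptor segments and predicted genes, the 10 highest and 10 lowest only in colitis, up to 8 each way only without, up to 10 for each of the other classes by their smaller difference, up to 4 members a list by interaction, and fixed AhR, goblet cell and control genes. Others, such as Ddx60, Hspb1, the Ifitm genes and the small nucleolar RNAs, were chosen after their values were seen, as were the interferon and heat shock motifs. The sorting was run on simulated data with little noise, for genes well above background and with differences set clear of the class limits. That checks only that the rules work as written, and not how often genes near a limit or near background are misplaced. Alternatives were quantile normalization, median centring, other floors, thresholds and limits, means of probe sets, genes near the maximum left out and all gene types. Promoters came from RefSeq, with 8511 of 10368 genes matched. Python 3.11.15, numpy 2.4.6, pandas 2.3.3, scipy 1.17.1 and matplotlib 3.10.9 were used.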

Additional observations from a re-analysis of the deposited data

Results flagged for a closer look

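A total of 15 named genes were singled out because the I3C difference pointed one way without colitis and the other way in colitis. With 1 array a group, none of these differences was tested. The interaction was above 0 for Phgr1 (2.43), Nqo1 (2.39), Arhgap20 (2.37), H1f2 (2.26), Ugt2b5 (2.25), B4galnt2 (2.04), Pparg (1.92), Fabp2 (1.84) and Mier3 (1.82). It was below 0 for S100a9 (-8.44), Il1a (-5.06), Hoxd13 (-2.53), Ly6c2 (-2.27), Saa1 (-2.06) and Acot2 (-1.75). S100a9, Il1a, Ly6c2 and Saa1 were highest in TNBS + Veh, beside the neutrophil markers.

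The median I3C difference changed sign between the settings for 14 of the 34 gene lists, which was not tested either. Only 2 of them had medians of at least 0.1 in both settings and a median interaction of at least 0.5. The pentraxin list had a median interaction of 3.70 over 3 genes above background, and the heat shock list one of -0.57 over 12. For the pentraxins 3.70 is the value of Mptx1 itself, between Mptx2 at 4.29 and Crp at 0.01. Crp read 5.44 in Vehicle and lay below background in the other arrays. The other 4 of 7 measured pentraxins were above background in no array.

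Outside the named genes, 200 of the 12116 probe sets above background without a single symbol also differed only in colitis, with 104 only without colitis, 63 alike, 12 unequal and 42 opposite. They carry no gene name here.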

How the results depend on the processing

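No paired analysis was possible because each group had 1 array, and for the same reason no replicate could be left out. No named gene with an interaction of at least 1 in size changed sign under the alternatives run. Nor did any list with a median interaction of at least 0.25 in size under the normalizations and floors. Smaller values were not judged for sign, and a change of threshold or limit leaves the interaction itself as it was. The class counts moved mainly with the thresholds. At 1.5-fold, 572 genes differed only in colitis, 101 only without, 54 alike and 64 in opposite directions. At 3-fold these counts were 89, 0, 4 and 7, while 10 stayed the count of unequal genes under both. With the smaller difference limited to 0.25, 4 genes differed only without colitis, 35 alike, 29 unequally and 65 in opposite directions. With a limit of 0.75, 16 differed only without colitis, 3 unequally and 7 in opposite directions. Of the 95 named genes in a class, 50 kept it at 3-fold, 73 with the limit of 0.25 and 77 with that of 0.75. Without the floor, 23 differed only without colitis, and over all gene types 26 did and 40 differed alike. Under quantile normalization 196 of the 207 genes only in colitis were shared, under median centring 197 and with a floor 1 higher (6.43) 157. With that floor 83 of the 95 named genes in a class kept it: Amy2b, Gbp2, Lrat, Lyz1, Mcpt2, Olfm4, Pfkfb3 and Rrm2 left theirs, and Ly6c2, S100a9, Ptafr and Retnlg passed to the class only in colitis. The interaction of 21 named genes moved by at least 0.49 with that floor, the SD of the interaction over all genes. The median interaction then stood at -2.59 for the cytokine list and 2.46 for the gasdermin list. Values near 19.93 had no room to differ.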

Other observations

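Noncoding genes with 1 symbol were sorted in the same way. Of 5430 above background, 106 were in a class, and 62 (1.14%) differed only in colitis. Small nucleolar RNAs made up 22 of these, which is 3.40% of the 647 above background. Ribosomal RNA genes were among them too, with 3 of 62. Snora20 read 12.75 in the Vehicle array, 12.94 with I3C alone, 10.82 in colitis and 12.36 in colitis with I3C, and Snora62, the exception in direction, read 13.08, 13.53, 12.75 and 11.10. Snord111 was the only opposite one, at 12.51, 11.83, 10.49 and 12.35. Only 4 of 649 long noncoding RNAs were in a class, all in that of a difference only in colitis.

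For 2 classed genes, Cd83 and Stfa3, another probe set with the same symbol lay above background. Its interaction had the same sign but was smaller, 0.45 against 1.13 for Cd83 and -0.60 against -3.40 for Stfa3, and neither was in a class by that probe set.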
